A study of Mus musculus with 30 samples.

Results

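Mouse embryos that carried 1 intact copy of *Dis3* (het) were compared with wild-type embryos, and the members were chosen by the genotype and stage in their labels. They were 7 het and 9 wild-type embryos, 16 of the 23 single embryos and of the 30 samples of the series. At E2.5 there were 2 het and 6 wild-type embryos, and at E2.75 there were 5 het and 3 wild-type embryos. Every embryo came from a cross of a *Dis3*+/- female, superovulated with hormones, with a *Dis3*+/- male. The wild-type embryos therefore grew from oocytes of het mothers too, and RNA or protein deposited by the mother before fertilization came from het oocytes in both groups. Each embryo was lysed on its own with ERCC spike-in RNA, its poly(A) RNA was sequenced, and its genomic DNA was used for the genotype. The null allele existed in more than 1 mouse line, and the sources used here do not say which line gave these embryos. Nor do they say which embryos shared a litter, so the p-values measure the spread between embryos. A whole embryo was measured, so fewer cells of a type and less RNA per cell cannot be told apart.

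DIS3 is the processive 3′-to-5′ ribonuclease of the nuclear RNA exosome, and it also carries an endonuclease activity. The exosome core is a barrel of subunits that threads RNA to its nucleases, while EXOSC10 is a second exonuclease of the complex and cofactors bring RNA to it. It trims precursors of stable RNAs and removes short-lived transcripts such as promoter upstream RNAs. At the 2 stages the embryo compacts and its outer cells start the trophectoderm programme, in which *Cdx2*, *Gata3* and *Krt8* are early genes.

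The null allele lacks exons 3 to 5, which were cut out with a pair of Cas9 guides whose sites flank them in introns 2 and 5. The sites are shown because they set which *Dis3* reads the allele can still give. The 3 capitals mark the protospacer adjacent motif, and the letters are those of the minus strand of GRCm38, on which *Dis3* is transcribed.
left guide site: gagttgaatggttgattcttTGG
right guide site: cctccctggtctcgtttgttCGG
The 20 bases of the left guide lie at chr14:99098426-99098445 and those of the right guide at chr14:99094263-99094282. The cuts lie 4163 bp apart. Of the 7754 exonic bases of *Dis3* (ENSMUSG00000033166, chr14:99075206-99099770), 94.4% lie outside the deletion. A read from those bases of a null allele would still count as *Dis3*. Exons of *Dis3* and *Pibf1* overlap on opposite strands, and the reads were counted without strand.

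The 16 libraries held 3009380 to 14015980 counts on genes, and ERCC counts were 2.06% to 7.44% of gene and ERCC counts. The first principal component separated the stages and held 24.4% of the variance. The chi-square per gene between replicates was 26.3 to 184, beyond sampling noise, so each embryo counted as its own sample. Markers of the preimplantation embryo were found in 14 to 16 of the 16 libraries for every gene of the list, while 4 of 9 sperm genes, 3 of 5 blood genes, 5 of 11 oviduct and uterus genes and 7 of 17 cumulus and granulosa genes had 0 counts in all of them. Summed over its list, the level was at most 1.57 CPM for sperm (*Acrv1* had counts in 6 libraries), 5.42 CPM for blood (*Hba-a1* in 10) and 11.9 CPM for oviduct and uterus genes (*Ovgp1* in 10). The cumulus and granulosa list, of which *Gja1* and *Amhr2* had counts in all 16 libraries, summed to 456 to 2040 CPM in het and 716 to 2152 CPM in wild-type embryos. Most of that sum was *Gja1*, at 433 to 2008 CPM in het and 689 to 2135 CPM in wild-type embryos. *Amhr2* and *Star* reached at most 36.3 and 21.1 CPM. The sexes were not balanced, since the Y-linked gene *Ddx3y* was at 115 to 210 CPM in both het and in 3 of 6 wild-type embryos at E2.5 and in 2 of 5 het and 1 of 3 wild-type embryos at E2.75, and at up to 0.609 CPM in the others, and its part in the results at E2.5 was not tested. Of the E2.75 het embryos 2 stood apart, replicate 2 (the smallest library) in histone, ribosomal protein and two-cell stage genes and replicate 3 in trophectoderm and p53 target genes.

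*Dis3* itself was lower in het embryos at E2.75 and more variable among wild-type embryos at E2.5. Levels are CPM, the counts of a gene scaled to library size after TMM normalization over the 16 libraries. At E2.75 *Dis3* was at 109, 66.1 and 111 CPM in the wild-type and 43.3, 30.0, 49.5, 45.1 and 37.5 CPM in the het embryos. All 5 het embryos lay below all 3 wild-type embryos, and the het mean was 43.2% of the wild-type mean. At E2.5 the lowest, median and highest of the 6 wild-type embryos were 17.8, 84.4 and 146 CPM, and the het embryos were at 58.9 and 58.7 CPM. The groups overlapped at E2.5, where the libraries labelled wild-type replicates 5 and 6 were at 40.6 and 17.8 CPM, below both het embryos. Over both stages the mean was 46.2 ± 10.6 CPM in het (SD, n = 7) and 87.9 ± 43.2 CPM in wild-type embryos (SD, n = 9). The geometric mean ratio of het to wild-type within stages was 0.596 (two-sided exact permutation of genotype within stages, p = 0.0976). Without the library with the label E2.5 wild-type replicate 6 it was 0.528 (exact permutation p = 0.0111), so the test turned on that embryo. That embryo was singled out for its low *Dis3* level, so the values without it are a description and no test. With stage as a covariate the log2 fold change of *Dis3* was -0.90 (SE 0.35, edgeR adjusted p = 0.655). Adjusted p-values are edgeR's (quasi-likelihood, Benjamini-Hochberg) unless DESeq2 is named. At E2.75 alone it was -1.22 (SE 0.28, adjusted p = 0.279), while DESeq2 called it at -1.24. Over both stages the fold was 0.537, with a 95% interval of 0.335 to 0.863. Normalized with all 23 embryos of the series, the 7 null embryos had a mean *Dis3* level of 10.6 CPM, from 0 to 20.9 CPM, below the lowest het embryo at 30.9 CPM. The library with the label E2.5 wild-type replicate 6 was at 18.2 CPM there, within the range of the null embryos. Its reads outside annotated exons were 22.9%, below the 32.3% to 39.5% of the E2.5 null embryos. Its level of *Dis3l*, a homologue of *Dis3*, was 37.5 CPM there, within the E2.5 null range of 13.4 to 53.5 CPM. Whether its label is right was not tested. Without that library edgeR called 0 genes higher and 0 lower with stage as a covariate, the same as with that library.

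**Figure D1:**
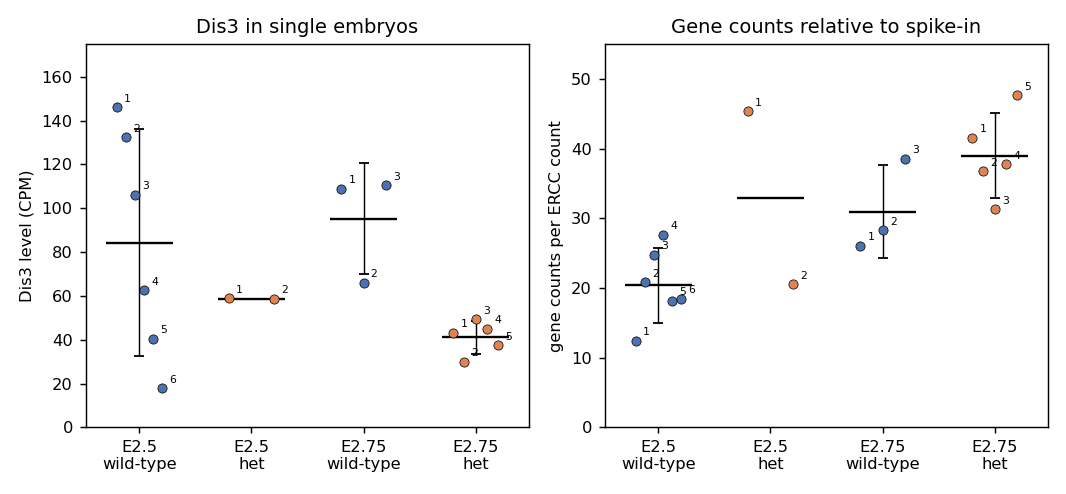
*Dis3* level in CPM (left) and gene counts per ERCC count (right) in each of the 16 embryos by stage and genotype, with replicate numbers beside the points. Horizontal lines are means and error bars SD, drawn for groups of 3 or more. At E2.75 the het embryos lie between 30.0 and 49.5 CPM, below all wild-type embryos, and at E2.5 the wild-type embryos spread from 17.8 to 146 CPM.

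By edgeR at most 1 gene passed the thresholds in a comparison, and *Dis3* did not, while DESeq2 called more genes. The thresholds were set at 0.1 for the adjusted p and at 1 for the size of the log2 fold change. With stage as a covariate, 0 of 16994 genes were called higher and 0 lower in het embryos (0% each), and the lowest adjusted p was 0.185. At an unadjusted p under 0.05, 521 genes (3.07%) were higher and 568 (3.34%) lower, in all 1089 of 16994. Scaled to ERCC, the same fit had 2365 higher and 232 lower at that level, as it had 1284 and 198 against 738 and 572 at E2.75. DESeq2 on the same embryos called 149 higher and 31 lower. At E2.75 alone 1 of 13407 genes was called higher (0.00746%), which was *Krt8*, and 0 lower (0%). There 738 genes (5.5%) were higher and 572 (4.27%) lower at an unadjusted p under 0.05, and DESeq2 called 306 and 184. Every het embryo lay above every wild-type embryo in 544 genes (4.06%) and below in 463 (3.45%). Leaving out het replicate 3 moved the calls at E2.75 to 16 higher and 14 lower, and leaving out wild-type replicate 2 moved them to 4 and 0. At E2.5, with 2 het embryos, edgeR called 0 of 14493 genes, 349 had an unadjusted p under 0.05, and DESeq2 called 10 and 16.

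EdgeR called no gene of the exosome. At E2.75 2 of 4 ribonuclease genes, *Dis3* and *Exosc10*, were lower at an unadjusted p under 0.05 and 0 higher, beside 4.27% and 5.5% of all genes. Of its ribonucleases, *Exosc10* was at 250, 69.7 and 171 CPM in wild-type and 89.1, 65.1, 123, 40.7 and 91.1 CPM in het embryos at E2.75, with overlapping groups (log2 fold change -1.01, SE 0.41, adjusted p = 0.431). With stage as a covariate its log2 fold change was -0.44 (SE 0.33), and +0.20 when scaled to ERCC. *Dis3l2*, a cytoplasmic nuclease that acts outside the exosome, stayed between 0 and 11.6 CPM, and *Dis3l*, the cytoplasmic homologue of *Dis3*, was under 6 CPM in 15 of 16 embryos and at 36.7 CPM in the library with the label E2.5 wild-type replicate 6, which had the lowest *Dis3* level.

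Of the 9 core subunits 8 passed the filter on low counts and were tested. Their log2 fold changes ran from -0.17 to 0.42 with stage as a covariate, with a median of -0.05 against 0.02 over all genes, and 0 of 8 had an unadjusted p under 0.05 in either fit. *Exosc4*, a ring subunit, had the largest of these, 0.42 (SE 0.21, adjusted p = 0.818). At E2.75 it was at 105, 90.8 and 76.1 CPM in wild-type and 124, 98.7, 114, 143 and 186 CPM in het embryos, with an overlap between replicates. *Exosc3*, a cap subunit, was at 91.0 to 145 CPM in wild-type and 105 to 153 CPM in het embryos at E2.75, which overlapped as well. *Exosc6*, another ring subunit, had no counts in any of the 16 embryos.

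Of the 19 cofactors tested, 1 had an unadjusted p under 0.05 with stage as a covariate and 0 at E2.75. This was *Ncbp2*, the small subunit of the nuclear cap-binding complex, at -0.49 (SE 0.23, adjusted p = 0.770), and at +0.08 when scaled to ERCC. *Mtrex*, the helicase that feeds RNA to the nuclear exosome, was at 148, 140.3 and 158 CPM in wild-type and 105, 107, 162, 86.9 and 133 CPM in het embryos at E2.75, with overlapping groups. The cofactors ranged from -0.49 to 0.95 with a median of 0.06. Among 33 other RNA decay factors tested, 1 had an unadjusted p under 0.05, the deadenylase subunit *Cnot8* at -0.49 (SE 0.24, adjusted p = 0.778). Shares of 0 to 1 member in each of these lists stood beside 3.07% of all genes higher and 3.34% lower.

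Of the shares measured for RNA classes that the exosome processes or removes, none passed a test between the genotypes. The libraries were made from poly(A) RNA, and small nuclear and nucleolar RNA genes took only 0.00689% to 0.0123% of counts. Promoter upstream RNAs were not measured as a class here. Reads outside annotated exons were 23.1% to 27.9% of reads in het and 23.5% to 33.4% in wild-type embryos at E2.75, with a ratio within stages of 0.947 (exact permutation p = 0.349). The ratio was 0.968 for long noncoding RNA genes (exact permutation p = 0.665), 0.901 for antisense genes (p = 0.206) and 0.986 for small nuclear and nucleolar RNA genes (p = 0.876, exact permutations). Adjusted over the 14 shares tested, the lowest p was 0.943. Of 19 snoRNA host genes, whose introns hold small nucleolar RNAs, 0 had an unadjusted p under 0.05 with stage as a covariate. At E2.75 4 of 19 were higher at that level, beside 5.5% of all genes, and 2 were without het replicate 2, with *Snhg11* at 20.8, 17.8 and 30.7 CPM in wild-type and 63.2, 60.6, 41.5, 85.4 and 75.4 CPM in het embryos (log2 fold change 1.49, SE 0.34, adjusted p = 0.279). Its groups did not overlap at E2.75, while at E2.5 the het embryos at 23.5 and 16.7 CPM lay within the wild-type range of 0.570 to 24.1 CPM.

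Replication-dependent histone genes, whose mRNAs mostly lack poly(A) tails, were above 0 on the log2 scale for 31 of 36 members with stage as a covariate. Over all genes it was 8649 of 16994. Of the 36 members 0 had an unadjusted p under 0.05, 5 reached 5 CPM, and the median was 0.75. Without E2.75 het replicate 2 only 30 members passed the filter on low counts, with a median of 0.38. The count of 31 thus rests in part on members that passed the filter with that embryo. Their share of counts at E2.75 was 0.00811% to 0.0458% in het and 0.00470% to 0.0109% in wild-type embryos (ratio 2.01, exact permutation p = 0.214). The highest value was that of het replicate 2, and the other 4 het embryos had 0.00811% to 0.0124%. At E2.75 the median of the tested histone genes was 1.23, and 0.65 without het replicate 2.

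*Krt8* (ENSMUSG00000049382, chr15:101996698-102004482, minus strand), a keratin of the trophectoderm, rose in E2.75 het embryos. Its exons overlap *Gm36026*. It was at 7.80, 19.1 and 12.7 CPM in the wild-type and 180.0, 164, 59.2, 153 and 150.5 CPM in the het embryos, with no overlap. The log2 fold change was 3.401 (SE 0.43, adjusted p = 0.0625). At E2.5 the 6 wild-type embryos ran from 26.4 to 188 CPM and the het embryos were at 67.4 and 90.7 CPM (log2 fold change -0.10). The het mean at E2.75, 141 CPM, thus lay within the range of E2.5 wild-type embryos, and the E2.75 wild-type mean of 13.2 CPM lay below it. The interaction of genotype and stage had an adjusted p of 0.771 for *Krt8* (edgeR). The call was lost when any of the 8 embryos other than het replicate 3 and wild-type replicate 2 was left out, and without het replicate 3 the log2 fold change was 3.59 (adjusted p = 0.00379). Over the 8 ways of leaving out 1 embryo the log2 fold change ran from 3.15 to 3.75 and the adjusted p from 0.00379 to 0.501.

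The other 4 genes named as lowest in p among those higher at E2.75 did not pass the threshold, and exons of 3 of them (*Khdc3*, *Timm13* and *Elf3*) overlap another gene. *Khdc3*, a component of the maternal subcortical complex of the oocyte, was at 242, 611 and 375 CPM in wild-type and 1593, 1295, 1205, 1565 and 1898 CPM in het embryos (log2 fold change 1.88, SE 0.30, adjusted p = 0.159). *Timm13*, a chaperone of the mitochondrial intermembrane space, was at 194, 163 and 128 CPM against 389, 515, 548, 350 and 403 CPM (1.44, SE 0.25, adjusted p = 0.207). The genotypes did not overlap in either gene at E2.75, and at E2.5 the log2 fold changes were 0.10 (SE 0.51) for *Khdc3* and -0.21 (SE 0.31) for *Timm13*. *Elf3*, an epithelial transcription factor, was at 25.5, 9.94 and 12.9 CPM in wild-type and 213, 183, 34.2, 222 and 127 CPM in het embryos (3.27, SE 0.59, adjusted p = 0.240). The lowest het value was that of replicate 3, close to the wild-type range. *Gm44164*, an annotated gene still to be experimentally checked (biotype TEC), had 0 counts in the 3 wild-type embryos and 4 to 156 counts in the het embryos. Pooled at E2.75, it was at least 63.4-fold higher in het, with a floor of 3 counts over the wild-type group. At E2.5 it ran from 0 to 5.36 CPM in wild-type embryos. Over both stages it had counts in 4 of 9 wild-type embryos and was, pooled, at 1.42 CPM in wild-type and 8.31 CPM in het.

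The 5 lowest p among genes lower at E2.75 belonged to *Gm12845*, *Lgr4*, *Crebrf*, *Paip2b* and *Zc3h12c*. *Lgr4*, a receptor for R-spondins that raises Wnt signalling, was at 102, 66.0 and 66.6 CPM in wild-type and 16.5, 21.4, 30.6, 18.3 and 17.03 CPM in het embryos (log2 fold change -1.92, SE 0.33, adjusted p = 0.207). *Crebrf*, a regulator of the transcription factor CREB3, was at 81.4, 66.8 and 102 CPM against 28.9, 24.7, 26.2, 35.0 and 29.8 CPM (-1.54, SE 0.27, adjusted p = 0.225). The het embryos lay below the wild-type embryos in both genes, and at E2.5 *Crebrf* was also at 36.1 and 45.4 CPM in het against 43.4 to 127 CPM in wild-type embryos. *Paip2b*, an inhibitor of poly(A)-binding protein, was at 251, 179 and 128 CPM against 75.1, 63.6, 87.9, 51.5 and 56.4 CPM (-1.49, SE 0.28, adjusted p = 0.267). *Zc3h12c*, of the Regnase family of RNA-binding nucleases, was at 132, 172 and 272 CPM against 55.6, 77.0, 68.8, 95.8 and 70.8 CPM (-1.39, SE 0.27, adjusted p = 0.279). *Gm12845*, at 60.3, 75.3 and 72.01 against 5.11, 5.35, 18.3, 8.76 and 11.3 CPM, had the largest difference, -2.82 (SE 0.44, adjusted p = 0.159). Of these 10 genes, 3 had a het mean at E2.75 within the range of the E2.5 wild-type embryos and 5 had a wild-type mean at E2.75 within it.

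**Figure D2:**
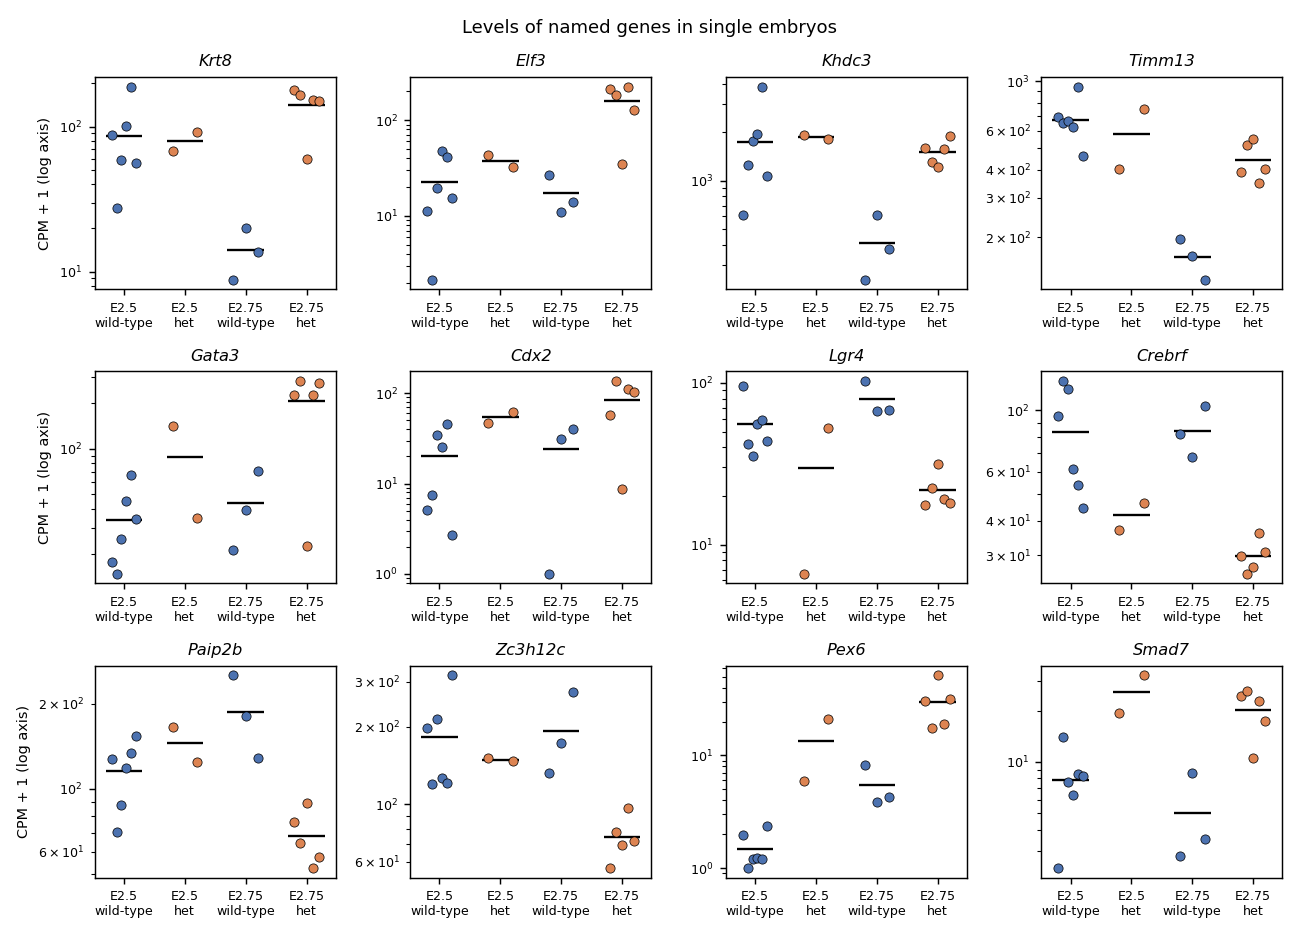
Levels of 12 named genes in each of the 16 embryos, as CPM plus 1 on a log axis, by stage and genotype, with horizontal lines at the means. *Krt8* and *Timm13* are lowest in the 3 E2.75 wild-type embryos, at up to 19.1 and 194 CPM, while *Crebrf* and *Zc3h12c* are lowest in the 5 E2.75 het embryos, at up to 35.0 and 95.8 CPM.

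In the fit over both stages, the genes of lowest p among those higher in het included *Pex6*, a peroxisome biogenesis ATPase. It was at 4.97 and 20.1 CPM in the E2.5 het embryos against 0 to 1.34 CPM in wild-type, and at 29.3, 16.3, 50.5, 17.9 and 30.8 CPM against 7.28, 2.86 and 3.25 CPM at E2.75. The groups were apart at both stages (log2 fold change 3.56, SE 0.63, adjusted p = 0.185). *Wnt7b*, *Sipa1l2* and *Tinagl1* were near absent in wild-type embryos, at up to 0.114, 1.14 and 1.03 CPM, and reached 20.3, 13.1 and 41.8 CPM in het embryos, with 2, 1 and 2 het embryos at 0. None of them was called. Of their 325, 417 and 574 counts in het embryos, 188, 105 and 229 came from 1 embryo each. *Ak4*, a mitochondrial adenylate kinase, was at 119 and 267 CPM against 76.5 to 122 CPM at E2.5 and at 187 to 235 CPM against 69.9 to 154 CPM at E2.75 (0.91, SE 0.21, adjusted p = 0.389). *Ak4* overlapped between the genotypes at E2.5 and not at E2.75.

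*Fabp5*, a fatty acid carrier, had a log2 fold change of 1.73 (SE 0.39, adjusted p = 0.389) and *Scd2*, a fatty acid desaturase, 1.64 (SE 0.41, adjusted p = 0.465). *Scd2* was at 93.2 and 79.2 CPM in het against 10.2 to 54.5 CPM in wild-type embryos at E2.5, and at 217 to 514 CPM against 24.2, 248 and 115 CPM at E2.75, where the groups overlapped. *Smad7*, which restrains TGF-beta signalling, was at 18.3 and 31.3 CPM in het against 1.38 to 12.9 CPM in wild-type embryos at E2.5 and at 9.605 to 25.0 CPM against 1.82 to 7.66 CPM at E2.75 (2.07, SE 0.50, adjusted p = 0.465). Its groups were apart at both stages. *Tpm1*, an actin-binding tropomyosin, had 1.36 (SE 0.32) and *Cbx6*, a Polycomb subunit, 2.84 (SE 0.70), each with an adjusted p of 0.465.

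Lower in het embryos with stage as a covariate, *Crebrf* had the lowest p (-1.30, SE 0.26, adjusted p = 0.279). *Gm37010*, at 6.67 to 22.2 CPM in the E2.5 and 11.4 to 16.5 CPM in the E2.75 wild-type embryos, was at 4.85 and 1.29 and at 0.108 to 3.10 CPM in het embryos (-3.05, SE 0.68, adjusted p = 0.389). All het values lay below all wild-type values. *Ilf2*, an RNA-binding protein, had a smaller difference, from 135 to 236 CPM in wild-type and 99.4 to 164 CPM in het embryos (-0.64, SE 0.17, adjusted p = 0.487). *Rbbp8*, an end-resection factor of DNA repair, had -0.89 (SE 0.24), *Phf6*, a chromatin reader, -1.27 (SE 0.33) and *Dnajb14*, a chaperone of the endoplasmic reticulum, -1.58 (SE 0.41), each with an adjusted p of 0.487. *Gm12845*, *Lgr4*, *Gm36298* and the tRNA gene *mt-Tm* were the others of the 10 lowest, at -1.81, -1.46, -3.39 (SE 0.89) and -1.20 (SE 0.27).

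The trophectoderm list held *Krt8* and several members that were higher in the E2.75 het embryos. At E2.75 7 of its 20 tested members had an unadjusted p under 0.05 and were higher and 1 was lower, beside 5.5% and 4.27% of all genes, with a median of 0.91 against 0.04 over all genes. In the fit over both stages it was 4 of 21 higher and 0 lower, beside 3.07% and 3.34% of all genes, with a median of 0.33. At E2.5 the median was -0.10. *Gata3*, a trophectoderm transcription factor, was at 20.3, 38.2 and 70.1 CPM in wild-type and 224, 280, 21.6, 227 and 273 CPM in het embryos at E2.75 (2.25, SE 0.67, adjusted p = 0.315). Replicate 3 lay at the lower end of the wild-type range and the other 4 het embryos lay above it. Without replicate 3 the log2 fold change of *Gata3* was 2.54. In that fit 10 of the 20 members were higher and 2 lower at an unadjusted p under 0.05, beside 791 and 784 of 12877 genes. That embryo was singled out for its values in these genes, so the figures without it are a description and no test. *Cdx2*, the first lineage factor of the trophectoderm, was at 0, 30.1 and 39.2 CPM against 55.8, 136, 7.78, 110 and 102 CPM (1.82, SE 1.03, adjusted p = 0.623). *Krt18*, the partner of *Krt8*, was at 90.5, 37.7 and 62.9 CPM against 138, 85.3, 110, 112 and 220 CPM (1.05, SE 0.37, adjusted p = 0.370), with 1 overlap. *Ppp2r2c*, a phosphatase subunit, was higher in every het embryo at E2.75, at 46.2 to 71.3 CPM against 32.2 to 38.5 CPM, and in both at E2.5, at 95.2 and 81.3 CPM against 13.9 to 78.5 CPM (1.00, SE 0.30, adjusted p = 0.548 with stage as a covariate). *Tead4*, which acts upstream of *Cdx2*, was the member that was lower, at 136 to 180 CPM in wild-type against 78.6 to 120 CPM in het embryos at E2.75 (-0.71, SE 0.23, adjusted p = 0.331).

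Of 26 junction and cavitation genes tested at E2.75, 7 were higher and 2 lower at an unadjusted p under 0.05, beside 5.5% and 4.27% of all genes, with a median of 0.41. *Aqp3*, a water channel, was at 54.1, 179 and 52.8 CPM in wild-type and 222, 370, 236, 310 and 330 CPM in het embryos (1.62, SE 0.40, adjusted p = 0.290). *Cldn7*, a tight junction claudin, was at 129, 137 and 91.3 CPM against 223, 308, 251, 206 and 233 CPM (1.03, SE 0.23, adjusted p = 0.279). The polarity gene *Pard3* was at 17.2, 24.6 and 25.6 CPM against 46.2, 61.8, 43.1, 48.6 and 50.2 CPM (1.15, SE 0.31, adjusted p = 0.299). These 3 genes did not overlap between the genotypes at E2.75, and het replicate 3 lay above the wild-type range in all of them. The adhesion gene *Cdh1* had 0.15 (SE 0.21) at E2.75, and *F11r* and *Aqp11* were the 2 that were lower.

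**Figure D3:**
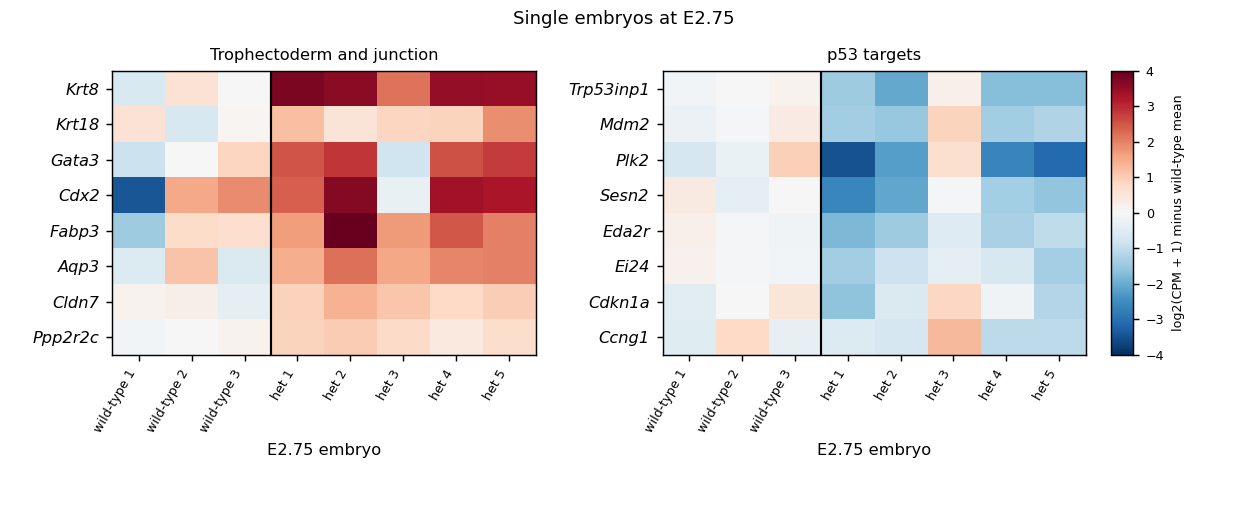
Each E2.75 embryo (columns) for 8 trophectoderm and junction genes and 8 p53 target genes (rows), chosen from their lists after their values were seen. Colour is log2(CPM + 1) minus the mean of the 3 wild-type embryos, limited to 4 in either direction. Het replicate 3 lies apart from the other 4 het embryos in *Gata3*, *Cdx2*, *Trp53inp1*, *Mdm2*, *Plk2* and *Sesn2* and among them in *Aqp3*, *Cldn7* and *Krt18*.

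Pluripotency, primitive endoderm and Hippo genes gave few differences. Of 22 pluripotency factors, 3 were higher and 1 lower at E2.75 at an unadjusted p under 0.05, beside 5.5% and 4.27% of all genes, with a median of 0.20. *Nanog*, a factor of the inner cells, was at 22.6, 115 and 26.5 CPM in wild-type and 184, 130, 25.8, 129 and 119 CPM in het embryos (1.10, SE 0.62, adjusted p = 0.620), with replicate 3 again at the wild-type level. *Pou5f1* was at 701, 931 and 831 CPM against 934 to 1331 CPM (0.54, SE 0.19, adjusted p = 0.370). *Gata6*, a factor of the primitive endoderm, was at 54.1, 162 and 144 CPM against 222, 203, 233, 192 and 219 CPM (0.83, SE 0.31, adjusted p = 0.386), with no overlap. Beside the same shares of all genes, of 12 primitive endoderm genes 1 was higher and 1 lower, and of 22 Hippo pathway genes 1 was higher and 2 lower, at E2.75.

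Of the p53 targets, some were lower in the E2.75 het embryos other than replicate 3. With stage as a covariate 0 of 22 had an unadjusted p under 0.05, with a median of -0.42, and at E2.75 4 of 20 were lower and 0 higher, beside 4.27% and 5.5% of all genes, with a median of -0.49. *Eda2r*, a death receptor gene, was at 189, 155 and 145 CPM in wild-type and 46.0, 59.7, 114, 65.2 and 80.2 CPM in het embryos (-1.17, SE 0.29, adjusted p = 0.290). *Trp53inp1*, a p53-induced nuclear protein, was at 289.9, 311 and 349 CPM against 118, 76.4, 366, 96.2 and 96.5 CPM (-1.07, SE 0.44, adjusted p = 0.442). *Mdm2*, the ubiquitin ligase that turns p53 over, was at 115, 129 and 173 CPM against 51.5, 47.6, 255, 51.3 and 58.4 CPM (-0.58, SE 0.53, adjusted p = 0.817). In the latter pair het replicate 3 was above the wild-type range and the other 4 het embryos were below it.

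Without het replicate 3, 13 of 20 p53 targets were lower at an unadjusted p under 0.05 and 5 were called, beside 784 of 12877 genes lower and 14 called. With all 5 het embryos 0 were called, and since that embryo was singled out for its values in these genes, the counts without it are a description and no test. The 5 were *Trp53inp1* (-1.72), *Plk2* (-3.06), *Mdm2* (-1.43), *Sesn2* (-1.90) and *Eda2r* (-1.40). In the same fit 2 of the 16 genes called higher were of the trophectoderm list, *Krt8* and *Gata3*. At E2.5 wild-type replicate 1 had the highest *Mdm2*, *Plk2* and *Trp53inp1* of its group, at 189, 93.9 and 354 CPM. The summed level of the list was 2191 to 6533 CPM in het and 3784 to 4418 CPM in wild-type embryos at E2.75.

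Of 39 cell cycle genes, 5 were lower and 0 higher at E2.75 at an unadjusted p under 0.05, beside 4.27% and 5.5% of all genes, with a median of -0.25. *Cdc20*, an activator of the anaphase-promoting complex, was at 1059, 729 and 928 CPM in wild-type and 403, 541, 614, 439 and 479 CPM in het embryos (-0.88, SE 0.21, adjusted p = 0.290). *Ccnb1*, the mitotic cyclin B1, was at 778, 558 and 710 CPM against 251, 192, 406, 486 and 350 CPM (-1.03, SE 0.28, adjusted p = 0.299). Both groups were apart, as they were in 7 of the 39 genes, all with the het embryos lower, beside 3.45% of all genes. Over both stages 4 were lower and 1 higher, beside 3.34% and 3.07% of all genes. The 1 higher was *Mcm2* of the replicative helicase at 0.65 (SE 0.26). Scaled to ERCC, 13 were higher and 0 lower over both stages, beside 2365 and 232 of 16994 genes, and the median at E2.75 was 0.02 against 0.33 over all genes.

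Genes of the mitochondrial genome had log2 fold changes below 0 for 20 of 21 members with stage as a covariate, beside 8345 of 16994 genes. None was called. Of 21 tested with stage as a covariate, 7 were lower and 0 higher at an unadjusted p under 0.05, beside 3.34% of all genes, with a median of -0.41. At E2.75 5 of 19 were lower at that level, beside 4.27% of all genes. In 6 of 19 every het embryo lay below every wild-type embryo, beside 3.45% of all genes. *mt-Co1*, a subunit of cytochrome oxidase, was at 3983, 3947 and 4137 CPM in wild-type and 2195, 1564, 488, 2428 and 2817 CPM in het embryos at E2.75 (-0.89, SE 0.28, adjusted p = 0.577 with stage as a covariate). The tRNA gene *mt-Tm* was at 168, 163 and 188 CPM against 63.7, 41.6, 25.2, 94.6 and 58.1 CPM (-1.62, SE 0.34, adjusted p = 0.279). As a share of counts the mitochondrial genome took 3.06% to 7.41% in het and 5.70% to 8.38% in wild-type embryos at E2.75, with a ratio within stages of 0.829 (exact permutation p = 0.235). Scaled to ERCC, the median over all genes moved to 0.53 with stage as a covariate and 0.33 at E2.75. With stage as a covariate the median of the mitochondrial genes then was 0.12 and that of the p53 targets 0.13, so their sign turned. At E2.75 the 2 medians were -0.17 and -0.34, so their sign stayed. Both lists stayed below the median of all genes in either fit.

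Cytosolic ribosomal protein genes differed between the stages in sign. At E2.75 66 of 78 had a log2 fold change above 0, beside 6975 of 13407 genes, with a median of 0.30. Every het embryo lay above every wild-type embryo in 12 of 78, beside 4.06% of all genes. At E2.5 70 of 78 were below 0, beside 7952 of 14493 genes, with a median of -0.42. At an unadjusted p under 0.05, 4 were higher at E2.75, beside 5.5% of all genes, and 0 were higher and 3 lower at E2.5, beside 1.17% and 1.24%. Scaled to ERCC, 23 were higher at E2.75, beside 1284 of 13407 genes. Over both stages 24 were then higher and 0 lower, beside 2365 and 232 of 16994 genes, against 0 higher without that scaling. Their share of counts at E2.75 was 1.963% to 2.09% in wild-type and 2.09% to 3.57% in het embryos (ratio 1.22, exact permutation p = 0.196), with the highest value in replicate 2. Without that embryo the median of the ribosomal protein genes at E2.75 was 0.16 and 2 were higher at an unadjusted p under 0.05. Of 43 ribosome biogenesis genes 1 was higher and 5 lower at E2.75 at that level, beside 5.5% and 4.27% of all genes, with a median of -0.16, and 0.11 when scaled to ERCC.

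**Figure D4:**
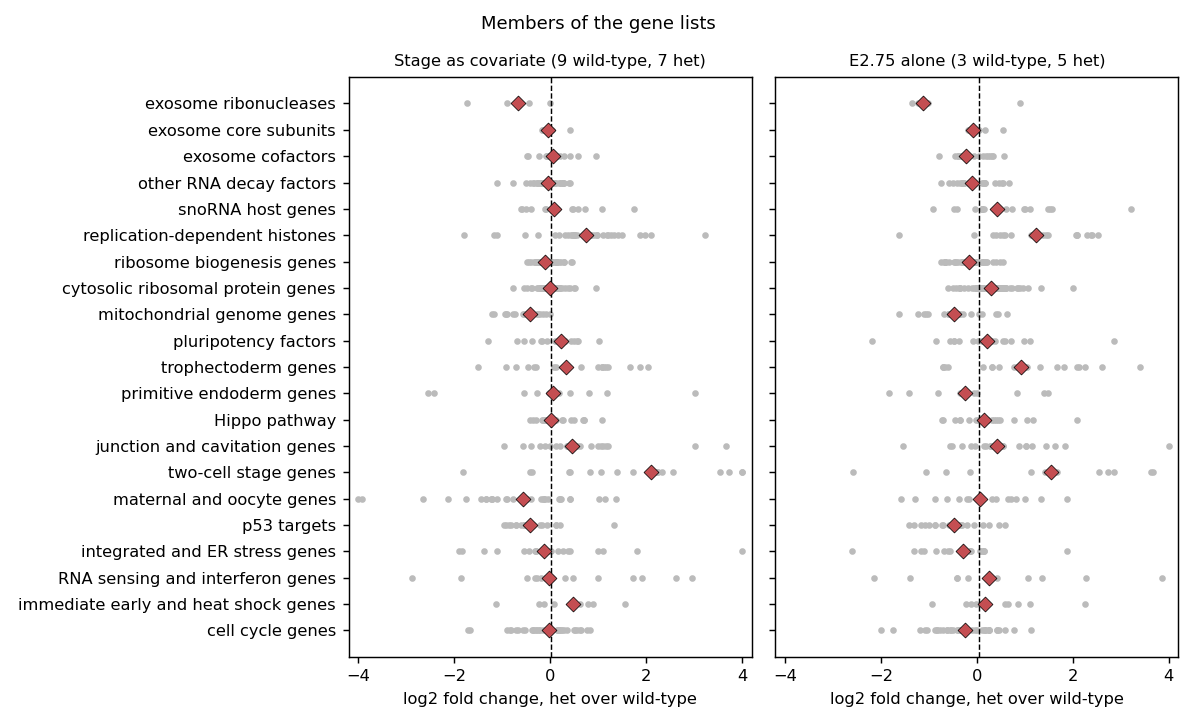
Log2 fold changes of het over wild-type for the tested members of 21 gene lists (grey points, those beyond 4 drawn at the edge) and their median (red diamonds), with stage as a covariate (left) and at E2.75 alone (right). The dashed line is the median over all genes tested, 0.02 on the left and 0.04 on the right. The trophectoderm median is 0.91 and the p53 target median -0.49 at E2.75, and the core exosome subunits stay within -0.17 and 0.42 on the left.

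The stress, sensing, two-cell stage and maternal lists gave no call. At E2.75, where 5.5% of all genes were higher and 4.27% lower at an unadjusted p under 0.05, integrated and endoplasmic reticulum stress genes had 1 higher and 2 lower of 21, with *Xbp1*, a regulator of the unfolded protein response, at 8.06, 13.9 and 11.3 CPM in wild-type and 42.5, 93.6, 24.6, 29.8 and 16.1 CPM in het embryos (1.88, SE 0.58, adjusted p = 0.318). RNA sensing and interferon genes had 1 higher and 1 lower of 11, and immediate early and heat shock genes 2 higher and 0 lower of 11. Of 12 two-cell stage genes 3 were higher and 1 lower, with a median of 1.55. Without het replicate 2 it was 0 higher and 2 lower of 11, with a median of 0.14. The share of counts on two-cell stage genes was 0.192% in het replicate 2 and 0.00828% to 0.0116% in the other 4 het embryos, against 0.0109% to 0.0343% in wild-type. Maternal and oocyte genes had 1 of 17 higher, *Khdc3*, and took 0.576% to 0.691% of counts in het and 0.482% to 0.559% in wild-type embryos at E2.75. That ratio, 1.21, had an exact permutation p of 0.0179, the smallest that 56 assignments allow, and 0.250 after adjustment over 14 shares. Over both stages the ratio was 1.05 (exact permutation p = 0.542) and at E2.5 it was 0.887. In the fit over both stages 23 of 31 maternal genes were below 0, beside 8345 of 16994 genes, with a median of -0.56. For the 16 of them that reached 5 CPM the median was -0.18.

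*Pou6f1*, a POU homeobox factor that the study followed in null embryos, was at 22.6, 32.5 and 57.2 CPM in wild-type and 16.2, 19.02, 34.9, 8.40 and 11.97 CPM in het embryos at E2.75 (-1.05, SE 0.50, adjusted p = 0.532). At E2.5 it was at 8.08 and 16.2 CPM in het against 3.31 to 27.9 CPM in wild-type embryos, and the difference with stage as a covariate was -0.47 (SE 0.47). Normalized with all 23 embryos, the mean of *Pou6f1* was 19.8 CPM in wild-type, 16.9 CPM in het and 40.2 CPM in null embryos. The means of *Cdx2* there were 20.5, 76.0 and 11.8 CPM and those of *Nanog* 50.2, 98.2 and 35.1 CPM in the same order. *Sox15*, an SRY-box factor, was at 542, 306 and 843 CPM there, and its het to wild-type difference was -0.55 (SE 0.23, adjusted p = 0.698). The means over the 23 embryos pool both stages, whose mix differed between the genotypes. At E2.5 and E2.75 there were 6 and 3 wild-type, 2 and 5 het and 4 and 3 null embryos. In null embryos *Cdx2* was at 0 to 13.5 CPM at E2.5 and 14.4 to 30.9 CPM at E2.75. Differences between these means therefore mix stage with genotype. Of 21 genes that the study named, 3 were higher and 1 lower in het embryos at an unadjusted p under 0.05. This was with stage as a covariate, beside 3.07% and 3.34% of all genes. Part of the 21 genes, *Pou6f1* and *Sox15* among them, were picked by the study with the help of null against het embryos of the same series. Others, such as *Gata4* and *Gata6*, it named as lineage markers.

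Of the 26 annotated genes within 1 Mb of *Dis3* on chromosome 14, 6 were tested with stage as a covariate, none was called, and 11 had no counts in any of the 16 embryos. *Pibf1*, whose exons overlap those of *Dis3*, had a log2 fold change of 0.16 (SE 0.28). *Bora*, an activator of Aurora A, was at 70.7 to 85.2 CPM in wild-type and 65.3 to 89.2 CPM in het embryos at E2.75, so its groups overlapped. *Klf5*, a factor of the early embryo, was at 237, 436 and 356 CPM in wild-type and 629.9, 796, 319, 839 and 826 CPM in het embryos at E2.75 (0.99, SE 0.32, adjusted p = 0.338), with replicate 3 at the wild-type level.

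Gene counts per ERCC count, which rise with the poly(A) RNA of an embryo, were 31.3 to 47.6 in het and 26.04 to 38.6 in wild-type embryos at E2.75. At E2.5 they were 45.4 and 20.5 in het and 12.4 to 27.6 in wild-type embryos. The ratio of het to wild-type within stages was 1.38 (two-sided exact permutation p = 0.0370). Without E2.5 het replicate 1 it was 1.19 (exact permutation p = 0.209). It also missed 0.05 without E2.5 wild-type replicate 5 or 6, E2.75 wild-type replicate 1 or 2 or E2.75 het replicate 1 or 5, with ratios from 1.35 to 1.38, and at E2.75 alone it was 1.27 (exact permutation p = 0.143). After thinning each library to 3009380 counts, 15102 to 16708 genes were detected in het and 15624 to 16798 in wild-type embryos at E2.75, and the ratio over both stages was 1.02 (exact permutation p = 0.371).

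The 2 stages shared no embryo, so their differences could be set side by side. Over 8982 genes at 5 CPM or more, the Pearson correlation of the 2 sets of log2 fold changes was 0.10 and the Spearman correlation 0.04. The genes within a stage share the same libraries and their depth. Of 1063 of these genes with an unadjusted p under 0.05 at E2.75, 53.8% had the same sign at E2.5, and over all genes 50.01% did. *Dis3*, *Crebrf*, *Pex6*, *Smad7* and *mt-Tm* had the same sign at both stages, while *Krt8*, *Timm13* and *Paip2b* did not. *Crebrf*, *Pex6*, *Smad7* and *mt-Tm* were named for a low p in the fit over both stages, which favours a shared sign. The other 3 were named for E2.75, so this contrast is a description and no test. No gene passed the test of the interaction of genotype and stage by edgeR (0 of 16994, lowest adjusted p 0.478, 1090 at an unadjusted p under 0.05), and DESeq2 called 70 and 31.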

How the data were processed

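Single-embryo libraries of 7 het and 9 wild-type embryos were analysed, and the 7 null embryos entered only the levels normalized over 23 embryos and 1 alternative fit. The authors used Cutadapt 3.4 for trimming, STAR 2.7.8a for alignment to GRCm38 and HTSeq 0.11.4 for unstranded counting over exons, and deposited a file of raw counts per gene for each embryo. The 92 ERCC rows and the 5 summary rows stayed out of library sizes and tests. Of the reads, 21.0% to 33.4% lay outside exons and 1.958% to 2.73% were ambiguous. The other 7 samples of the series were not used here.

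Of the 55487 gene IDs, 55227 matched GENCODE vM21. Counts were fitted in edgeR 4.0.16 (R 4.3.3) with TMM normalization, filterByExpr by stage and genotype and the quasi-likelihood test, with stage as a covariate over 16 embryos or without covariate within a stage. P-values were adjusted by Benjamini-Hochberg over all genes tested, and calls needed 0.1 for the adjusted p and 1 for the size of the log2 fold change, as in the study. DESeq2 1.42.0 was an alternative. Single values and shares were tested by exact two-sided permutation of genotype within stages, over 1568 assignments (smallest p 0.000638) or 56 at E2.75 (smallest p 0.0179), on the mean log2 value, with 0.5 CPM added for CPM. Depth was 3009380 to 14015980 counts, and floors (3 counts for a count of 0) cover counting error only. The steps were tested on simulated data.

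The embryos and gene lists were chosen with earlier results of these data known. The genes named were the exosome genes, genes called, the 10 of lowest p in each direction with stage as a covariate and the 5 in each direction at E2.75 (mean of at least 5 CPM in a genotype), in each other list the 2 of lowest p and the 2 of highest level, genes the study named and tested neighbours of *Dis3*. Members outside this rule (*Plk2*, *Mdm2*, *Krt18*, *Tead4*, *Pard3*, *Mcm2* and others) were named after their values were seen. Embryos with the same number were not treated as pairs, and the correlations of their deviations from group means were -0.15 to 0.10. Deviations within groups of as few as 2 embryos are tied to each other, so these values cannot show whether a litter was shared. The alternatives were DESeq2, other normalizations, no filter on low counts, a replicate block, a covariate for Y-linked reads, the null embryos in the fit, the 2 smallest libraries left out, stages merged and each embryo left out in turn; the merged DESeq2 fit and gene lists without E2.75 het replicate 2 or 3 were added after seeing the data.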

Additional observations from a re-analysis of the deposited data

Results flagged for a closer look

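Of 144 groups of 4 to 10 embryos tested for the genes and shares named, 20 (13.9%) held 1 embryo far from the rest by Dixon's criterion, where chance gives about 1 in 20 for groups not chosen by their values. Some of these genes, *Mdm2*, *Plk2* and *Sesn2* among them, were named after their values were seen, so that rate does not apply to the count. E2.75 het replicate 3 gave 6 of them. It was the lowest het embryo in *Krt8*, at 59.2 CPM against 150.5 to 180.0 CPM in the others, and in *Gata3*, at 21.6 CPM against 224 to 279.7 CPM. It was the highest in *Trp53inp1* at 366 CPM, *Mdm2* at 255 CPM, *Sesn2* at 261 CPM and *Plk2* at 162 CPM, where the other het embryos reached at most 118, 58.4, 104 and 21.7 CPM.

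E2.75 het replicate 2, the smallest library, held 0.0458% of its counts on replication-dependent histones, 3.57% on ribosomal protein genes and 0.192% on two-cell stage genes, against at most 0.0124%, 2.44% and 0.0116% in the other het embryos. E2.75 het replicate 4 was highest in *Gm37010*, at 3.10 CPM.

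Among the E2.5 wild-type embryos, replicate 1 was highest in *Trp53inp1* (354 CPM), *Mdm2* (189 CPM), *Plk2* (93.9 CPM), *Pibf1* (116 CPM) and *Gm12845* (47.8 CPM). Replicate 2 was lowest in *Exosc4* (62.2 CPM) and highest in *Xbp1* (86.4 CPM). Replicate 3 was highest in *Pou6f1* (27.9 CPM), replicate 5 in *Scd2* (54.5 CPM) and replicate 6 in *Ppp2r2c* (78.5 CPM).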

How the results depend on the processing

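DESeq2 called more genes than edgeR in every comparison, 149 higher and 31 lower with stage as a covariate, 306 and 184 at E2.75, 10 and 16 at E2.5 and 70 and 31 for the interaction, and it called *Dis3* at E2.75 at -1.24. DESeq2 with the stages merged called 85 and 56. With all genes kept whatever their counts, edgeR called 3 higher with stage as a covariate and 87 higher and 74 lower at E2.75, and with ERCC normalization it called 4 higher with stage as a covariate. At E2.75 the 1 call, *Krt8*, became 0 with the null embryos in the fit, a covariate for Y-linked reads or the 2 smallest libraries (E2.75 wild-type replicate 1 and het replicate 2) left out. Leaving out 1 embryo gave 0 to 16 genes higher and 0 to 14 lower at E2.75. The number of genes without overlap at E2.75 was 921 higher and 165 lower on ERCC-scaled CPM, against 544 and 463. The cause of these differences was not tested.

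The replicate block also gave 0 calls at E2.75 in place of 1 and 0 with stage as a covariate, and the genes at an unadjusted p under 0.05 went from 1310 to 706 and from 1089 to 806. The labels give the embryos of a block no more in common than a number.

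Of 297 other settings for 27 genes named with stage as a covariate, 264 kept direction and side of the threshold, 29 passed it and 4 turned, *Exosc10* to 0.20 and *Ncbp2* to 0.080 with ERCC normalization and *Pibf1* to -0.080 with the stages merged in edgeR and -0.076 in DESeq2. All 432 fits without 1 embryo kept both. For 33 genes at E2.75, 260 of 297 kept both, 33 passed and 4 lost the threshold (all *Krt8*), as did 6 of 264 fits without 1 embryo (also *Krt8*).

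Gene counts per ERCC count had a ratio of 1.27 at E2.75 alone and 1.19 to 1.53 without 1 embryo. Genes detected had 0.990 at E2.75 and 0.999 to 1.04 without 1 embryo, lncRNA genes 0.929 to 1.01, and reads outside exons 1.00 with labels exchanged over all embryos. Maternal genes had 0.785 with labels exchanged over all embryos and 1.21 at E2.75. The median SE of a log2 fold change was 0.774 with stage as a covariate and 0.597 at E2.75 over all genes tested, and 0.401 and 0.458 over those of at least 5 CPM.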
